A study of Homo sapiens with 6 samples.

Results

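The interleukins and interleukin receptors are 85 of the 18132 genes measured here, taken as every gene symbol of the platform annotation that begins with IL and a digit, with the brightest probe set standing for each gene. Interleukins are secreted messengers of the immune system. Most bind receptors built of a chain that recognises the ligand and a chain shared within a family. The common gamma chain IL2RG and the chain IL6ST pass the signal to JAK kinases and STAT transcription factors, while receptors of the IL1 family recruit MYD88 and IRAK kinases and those of the IL17 family recruit TRAF3IP2, both towards NF-kB. Melanoma cells are known to release IL1A, IL1B and CXCL8 and to carry IL13RA2, a receptor that binds IL13 without a known route through STAT6. The cytokine IL24 was first described in melanoma cells under the name MDA7.

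The arrays hold total RNA of A375, a human melanoma cell line, grown in serum-containing medium without treatment. There are 3 control arrays of A375 cells and 3 knockdown arrays of A375 cells in which a stable short hairpin RNA targets MAP4K5, a kinase upstream of JNK. All 6 are labelled biological replicates, with nothing on how the cultures were set up, so the p-values below speak of the spread among these cultures, which may be technical. The labels do not state whether the controls carried a vector or whether the knockdown line is 1 clone or a pool. The hairpin, the making of the line and the loss of MAP4K5 cannot be told apart.

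MAP4K5 measured 77.7, 78.1 and 76.3 in the controls and 19.7, 18.8 and 20.3 in the knockdown arrays, 3.95-fold lower (limma adjusted p = 2.9e-05). Of 13 melanocytic marker genes, 8 lay above the background level defined below, MITF, SOX10, S100B and PRAME among them, while the pigment genes PMEL, MLANA, TYR and TYRP1 did not. Of 11 leukocyte markers, PTPRC, CD3D, CD3E, CD2, MS4A1, CD14 and FCER1G were also not above it, while TYROBP, LYZ, CD79A and CSF1R were. Control replicate 2 stood apart: over all genes it correlated with the knockdown arrays at 0.993 to 0.994 and with the other controls at 0.992, while controls 1 and 3 correlated at 0.997. Its value is therefore given with those of the other arrays, and where leaving it out turned the call of a gene whose values are given below, the result without it follows. That array was singled out from these same values, and leaving it out raised the calls over all genes from 1420 to 3732. The adjusted p-values without it therefore show how far a call rests on that array and are no independent test.

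The deposited table has no detection calls, and the intensity of one probe set cannot be set against that of another. The intensities of 333 olfactory receptor genes, a family not known for wide expression in such cells, were taken as a guide: 95% of their gene means lay at or below 3.83, called the background level here. By this measure 37 of the 85 interleukin genes lay above background and 48 did not, whereas 64.7% of all genes lay above it. The count rests on the brightest probe set of each gene, and other probe sets of some of the 37 lay near or below that level. None of the 48 was called between the groups by limma at an adjusted p under 0.05 (0 also at an unadjusted p under 0.05), and their log2 fold changes ran from -0.25 to 0.26. Genes at that level were rarely called in general: 1380 of the 1420 genes called over the whole table lay above background. The 48 include IL2, IL3, IL4, IL5, IL13, IL21, IL22, IL31 and IL33, the IL17 ligands IL17A, IL17B, IL17C, IL17D, IL17F and IL25, and the receptor chains IL1R1, IL2RB, IL3RA, IL5RA, IL10RA and IL20RA. IL6 was also among them, at 4.56, 2.79 and 3.98 in the controls and 3.23, 2.75 and 3.38 in knockdown cells. IL6 was called downwards without control replicate 2, its lowest control (log2 -0.46, limma adjusted p = 0.0252).

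Between knockdown and control, 3 of the 85 genes passed limma with Benjamini-Hochberg adjustment over all genes (2 rose and 1 fell). The share of all genes called was 7.83% (3.70% rose and 4.13% fell), so the interleukin genes were not called more often than genes in general. The groups did not overlap for 10 of the 85, against 28.1% of all genes, and the median log2 fold change was 0.04 against 0.01 over all genes. Above the background level the shares called were 8.11% of the 37 interleukin genes and 11.8% of all genes. Groups did not overlap there for 21.6% and 37.3%. The 3 called genes were the receptor chain IL4R and the cytokine IL18, which rose, and the shared receptor chain IL1RAP, which fell.

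IL4R encodes the chain that binds IL4 and, paired with IL13RA1 or IL2RG, signals through STAT6. Its probe set measured 6.32, 7.56 and 7.15 in control replicates 1, 2 and 3 and 11.8, 11.7 and 13.8 in knockdown replicates 1, 2 and 3. The groups did not overlap, and control replicate 2 lay with the other controls. The mean rose from 7.01 ± 0.63 to 12.5 ± 1.2 (SD, n = 3 each), 1.78-fold (log2 0.83 ± 0.11 SE, limma adjusted p = 0.00431). IL4R was called in each of the 6 fits that left out 1 array, with log2 fold changes of 0.75 to 0.88. Of its 5 probe sets only this one was called, and the other 4 gave -0.02 to 0.24 at intensities of 5.68 or less. With all probe sets averaged the change was 0.24, not called (adjusted p = 0.122).

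The partners of IL4R did not pass the test. IL13RA1 measured 28.2, 27.9 and 29.5 in controls and 31.9, 29.1 and 30.4 in the knockdown arrays, which overlap (change of 0.09 ± 0.08 SE, limma adjusted p = 0.546). IL2RG lay between 3.6 and 4.65 in all 6 arrays. STAT6 measured 47.6, 50.3 and 52.5 against 55.6, 51.7 and 57.7 (0.13 ± 0.08, adjusted p = 0.402). The ligands IL4 and IL13 were not above background in either group.

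IL18 encodes a cytokine of the IL1 family that is made as an inactive precursor and cut by caspase 1. It measured 5.74, 10.3 and 7.69 in the controls and 14.4, 15.4 and 15.8 in knockdown cells. All 3 knockdown arrays lay above all controls, and control replicate 2 lay nearest to them. The mean rose from 7.92 ± 2.3 to 15.2 ± 0.7 (SD, n = 3 each), 1.97-fold (log2 0.98 ± 0.19 SE, limma adjusted p = 0.0203). The call was lost without control replicate 3 or any knockdown array, at log2 changes of 0.95 to 1.02 and adjusted p of 0.0685 to 0.0879. It was 1.19 without control replicate 2 (adjusted p = 0.00063), and against control replicate 2 alone 0.56. The only probe set of IL18 ends in _x_at, a class that can bind other transcripts, so no second probe set speaks for it. CASP1, the gene of caspase 1, measured 2.90 or less in all 6 arrays, which is not above background.

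The receptor side of IL18 was measured at 3 genes. IL18R1, the ligand-binding chain, measured 15.4, 6.15 and 16.1 in controls and 8.21, 7.82 and 5.53 in knockdown cells. Control replicate 2 lay inside the knockdown range, and the fold change was -0.70 ± 0.35 (SE, limma adjusted p = 0.268). Without control replicate 2 IL18R1 fell by 1.15 on the log2 scale (adjusted p = 0.00218). The co-receptor IL18RAP was not above background, and IL18BP, the secreted protein that captures IL18, lay at 5.18 to 6.28 in all arrays.

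IL1RAP encodes the accessory chain that the receptors of IL1, IL33 and IL36 ligands all need for signalling. It measured 48.3, 30.4 and 51.8 in the controls and 23.6, 23.3 and 22.6 in knockdown cells. The groups did not overlap, but control replicate 2 lay between the other controls and the knockdown arrays. The mean fell from 43.5 ± 12 to 23.2 ± 0.56 (SD, n = 3 each), a log2 change of -0.87 ± 0.18 (SE, limma adjusted p = 0.0286). Among the fits that left out 1 array the call held only without control replicate 2 (-1.11, adjusted p = 0.00011), and the others gave -0.88 to -0.73 with adjusted p of 0.0896 to 0.111. The other 3 of its 4 probe sets, at intensities of 5.43 or less, gave -0.39 to -0.05 and were not called. Averaged over the probe sets the change was -0.36 (adjusted p = 0.0531).

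**Figure D1:**
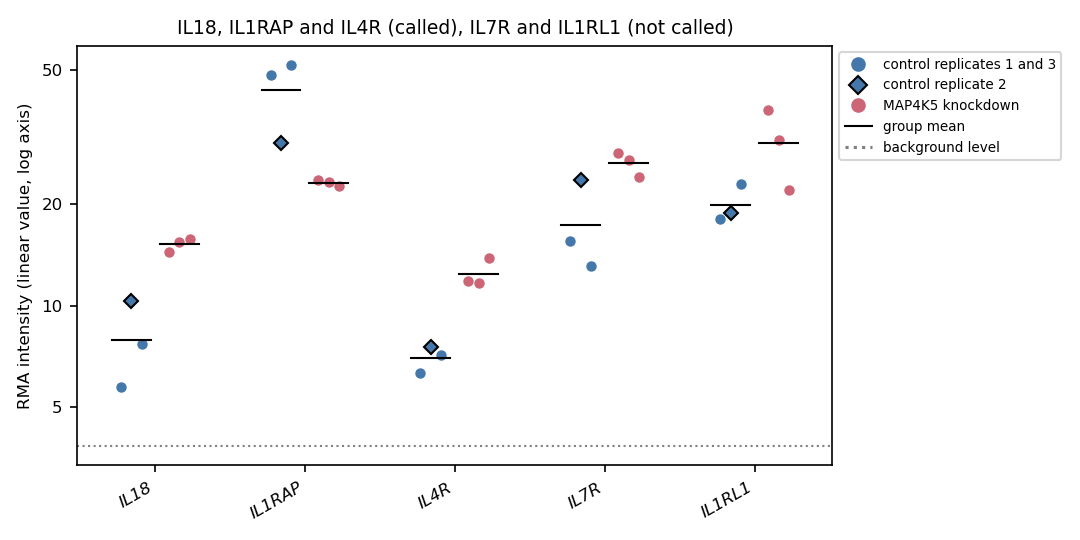
RMA intensity (log axis) of IL18, IL1RAP, IL4R, IL7R and IL1RL1 in each of the 3 control and 3 knockdown arrays, with a black line at each group mean, a diamond for control replicate 2 and a dotted line at the background level of 3.83. The knockdown arrays lie above all controls for IL18, IL4R and IL7R and below all controls for IL1RAP, while for IL1RL1 the groups overlap.

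The sequence before the gene start is shown for IL4R and IL1RAP, called in opposite directions, and for IL24 and IL1A, which share a pattern over the arrays given further on. Each run is the 250 bases upstream of the first RefSeq start (GRCh38.p14), read 5′ to 3′ on the gene's strand. Capitals mark matches, on either strand, to AP-1 (TGANTCA), STAT (TTCNNNGAA), NF-kB (its standard degenerate site), a TATA box (TATAAA) or an E-box (CACGTG). RefSeq promoters were matched for 69 of the 85 genes, and IL18 is among the 16 without one.
IL4R chr16:27313724-27313973 (+ strand): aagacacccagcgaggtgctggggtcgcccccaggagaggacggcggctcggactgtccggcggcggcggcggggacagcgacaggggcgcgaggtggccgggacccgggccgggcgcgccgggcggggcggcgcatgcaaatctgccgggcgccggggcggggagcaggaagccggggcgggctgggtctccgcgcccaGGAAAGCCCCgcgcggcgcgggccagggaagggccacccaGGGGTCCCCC
IL1RAP chr3:190513835-190514084 (+ strand): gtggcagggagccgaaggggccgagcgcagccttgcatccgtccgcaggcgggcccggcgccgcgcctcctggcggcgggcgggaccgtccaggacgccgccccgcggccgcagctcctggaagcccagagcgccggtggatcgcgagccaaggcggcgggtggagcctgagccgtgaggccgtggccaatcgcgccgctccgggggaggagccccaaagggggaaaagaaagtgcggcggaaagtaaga
IL24 chr1:206897193-206897442 (+ strand): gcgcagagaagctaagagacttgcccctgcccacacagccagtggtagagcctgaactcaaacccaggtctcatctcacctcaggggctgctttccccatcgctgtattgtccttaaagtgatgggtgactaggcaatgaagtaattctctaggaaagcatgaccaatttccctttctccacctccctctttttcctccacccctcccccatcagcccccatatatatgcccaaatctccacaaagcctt
IL1A chr2:112784494-112784743 (- strand): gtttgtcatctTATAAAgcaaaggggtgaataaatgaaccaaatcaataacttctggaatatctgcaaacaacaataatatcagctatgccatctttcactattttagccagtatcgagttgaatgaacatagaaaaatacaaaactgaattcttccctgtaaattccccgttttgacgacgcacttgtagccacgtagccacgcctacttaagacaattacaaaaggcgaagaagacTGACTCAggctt
IL4R held 2 NF-kB matches, beginning 50 and 10 bases before the start, and IL1A held an AP-1 match beginning 12 bases and a TATA match beginning 239 bases before it. The windows of IL1RAP and IL24 held no match to these letters. Over all 35093 RefSeq starts, 9.95% of such windows held the NF-kB letters, 6.57% the AP-1 letters and 10.7% the TATA letters. Over the 108 starts of interleukin genes, the shares were 14.8%, 14.8% and 16.7%. For the STAT letters they were 6.57% of all starts and 6.48% of those of interleukin genes, and for the E-box 6.34% and 1.85%. No match overlapped another in the printed windows.

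IL1A and IL1B, the founding ligands of the IL1 family, were above background together. IL1A measured 36.7, 16.1 and 38.5 in the controls and 19.5, 19.2 and 21.1 in knockdown cells. IL1B measured 38.0, 22.0 and 39.7 against 21.9, 25.3 and 28.6. For both genes controls 1 and 3 were the highest arrays and control replicate 2 lay with or below the knockdown arrays. Neither was called over all arrays (IL1A -0.51 ± 0.29 SE, limma adjusted p = 0.348; IL1B -0.35 ± 0.22, adjusted p = 0.384). Without control replicate 2 both fell, by 0.92 (adjusted p = 0.000302) and 0.63 (adjusted p = 0.00759) on the log2 scale. The antagonist IL1RN and the other 7 ligands of the family besides IL18 were not above background, with gene-wise log2 changes between -0.09 and 0.18.

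Among the receptors of the family, IL1RL1, which binds IL33, measured 18.0, 18.8 and 22.9 in the controls and 38.0, 31.0 and 22.0 in the knockdown arrays. Knockdown replicate 3 lay among the controls and the gene was not called (log2 0.58 ± 0.19 SE, limma adjusted p = 0.107). Among the fits that left out 1 array, IL1RL1 was called only without knockdown replicate 3 (0.79, adjusted p = 0.0464). Of the 5 probe sets of IL1RL1, 1 was called over all arrays, at 8.62, 9.08 and 10.6 against 16.1, 12.8 and 12.6 (0.55 ± 0.13, adjusted p = 0.0474). The ligand IL33 was not above background. IL1RAPL1, a synaptic relative of IL1RAP, measured 28.4, 16 and 18.5 against 18.4, 17.6 and 15.4 (-0.25 ± 0.20, adjusted p = 0.503), with control replicate 1 alone high. Neither IL1R1, the signalling receptor of IL1, nor the decoy IL1R2 was above background.

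The receptors of the common gamma chain family and of IL13 held 8 of 10 genes above background. IL13RA2, the IL13 decoy, measured 1718, 1545 and 1738 in controls and 1438, 1456 and 1480 in knockdown cells. Every knockdown array lay below every control, but the difference was small (log2 -0.19 ± 0.08 SE) and did not pass (limma adjusted p = 0.207). IL7R, the IL7 receptor chain, measured 15.5, 23.5 and 13.1 in controls and 28.3, 27.1 and 24.0 in knockdown cells. The groups did not overlap, with control replicate 2 just below the lowest knockdown array, and the change of 0.65 ± 0.20 was not called (adjusted p = 0.0849). Without control replicate 2 IL7R rose by 0.89 (adjusted p = 0.00128). IL15RA, which presents IL15 to neighbouring cells, measured 15.3, 13.8 and 17.8 against 11.5, 16.5 and 12.4 and was not called. Of the ligands, IL7 measured 15.3, 17.0 and 13.6 against 12.8, 15.5 and 13.1, overlapping between the groups (-0.15 ± 0.11, adjusted p = 0.495). A dimmer of its 6 probe sets, ending in _x_at, was called in the opposite direction, at 6.61, 7.29 and 5.68 against 8.72, 9.25 and 9.40 (0.49 ± 0.11, adjusted p = 0.0413). IL15 lay between 3.6 and 4.41 in all arrays.

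In the IL6 and IL12 family, the shared signalling chain IL6ST measured 327.5, 301.6 and 344.2 in the controls and 288.4, 278.2 and 285.2 in knockdown cells. The groups did not overlap and the change of -0.19 ± 0.08 (SE) was not called (limma adjusted p = 0.214). None of its 8 probe sets was called. IL11, a ligand that signals through IL6ST, measured 48.0, 16.2 and 57.6 in controls and 47.6, 48.9 and 49.0 in knockdown cells. Control replicate 2 was the single low array, and without it the log2 change turned from 0.45 ± 0.40 to -0.12 ± 0.10, neither called. The other 2 probe sets of IL11 also had their lowest value in control replicate 2, at 7.85 and 6.89. IL11RA, its receptor, measured 8.62, 7.04 and 10.3 against 5.75, 6.47 and 7.04 (-0.42 ± 0.14, adjusted p = 0.123) and fell without control replicate 2 (-0.56, adjusted p = 0.0125).

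IL12A, a subunit shared by IL12 and IL35, measured 9.62, 4.72 and 8.98 in the controls and 5.34, 5.07 and 5.79 in knockdown cells, with control replicate 2 the lowest array (-0.46 ± 0.24 SE, limma adjusted p = 0.301). It fell without control replicate 2 (-0.79, adjusted p = 0.000872). Its partner IL12B was not above background. EBI3, the partner of IL12A in IL35 and of IL27, measured 5.25, 8.21 and 8.71 against 12.5, 9.15 and 11.6, not overlapping and not called (0.61 ± 0.20, adjusted p = 0.108). IL23A, read by a probe set ending in _x_at, measured 9.58, 8.30 and 8.16 against 11.4, 9.30 and 10.1 (0.24 ± 0.11, adjusted p = 0.217). Its other probe sets lay at 6.43 or less. IL31RA, which pairs with OSMR to bind IL31, measured 15.8, 12.3 and 17.4 against 17.1, 16.7 and 16.9, with control replicate 2 the lowest array. The other probe sets of IL31RA lay at 4.8 or less.

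IL24 differed most among the control arrays. This member of the IL10 family measured 740.1, 122.6 and 800.0 in control replicates 1, 2 and 3 and 220.2, 229.5 and 227.4 in the knockdown arrays. Controls 1 and 3 were the highest and control replicate 2 was the lowest of all 6 arrays, below every knockdown array. Over all arrays the log2 change of -0.89 ± 0.62 (SE) was not called (limma adjusted p = 0.445). Without control replicate 2 IL24 fell by 1.77 (adjusted p = 1.48e-05), whereas against control replicate 2 alone the knockdown arrays were 1.84-fold higher. A second probe set repeated the order, at 261.3, 35.9 and 370.8 in controls and 69.2, 69.7 and 72.8 in knockdown cells. Of the chains that bind IL24, IL20RB lay between 4.37 and 5.53 in all arrays, and IL20RA and IL22RA1 were not above background. IL10RB, a shared chain of IL10, IL22 and interferon lambda receptors, measured 22.1, 23.0 and 23.6 against 23.6, 21.0 and 28.4 (0.08 ± 0.12, adjusted p = 0.753). IL10 itself lay between 3.93 and 4.86.

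In the IL17 family no ligand was above background, and 4 of 6 receptor genes were. IL17RD, also known as SEF, an inhibitor of FGF and ERK signalling, measured 22.9, 52.4 and 20.1 in the controls and 22.1, 26.4 and 24.6 in knockdown cells. Control replicate 2 was the single high array, and the change of -0.25 ± 0.31 (SE) was not called (limma adjusted p = 0.705), nor was 0.18 ± 0.11 without it. IL17RE, which binds IL17C, measured 29.5, 21.7 and 23.3 against 22.1, 18.0 and 22.6, and its other probe sets lay at 3.99 or less. IL17RA, the chain shared in the family, measured 9.34, 10.5 and 10.0 against 10.8, 11 and 10.6 (0.12 ± 0.08, adjusted p = 0.430). IL17RC lay between 11.9 and 15.0. Of the remaining genes, IL34, a ligand of CSF1R, measured 4.89, 3.48 and 3.71 against 4.01, 3.34 and 3.82, and IL16, IL32, IL4I1 and the antisense RNA IL6-AS1 were not above background.

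**Figure D2:**
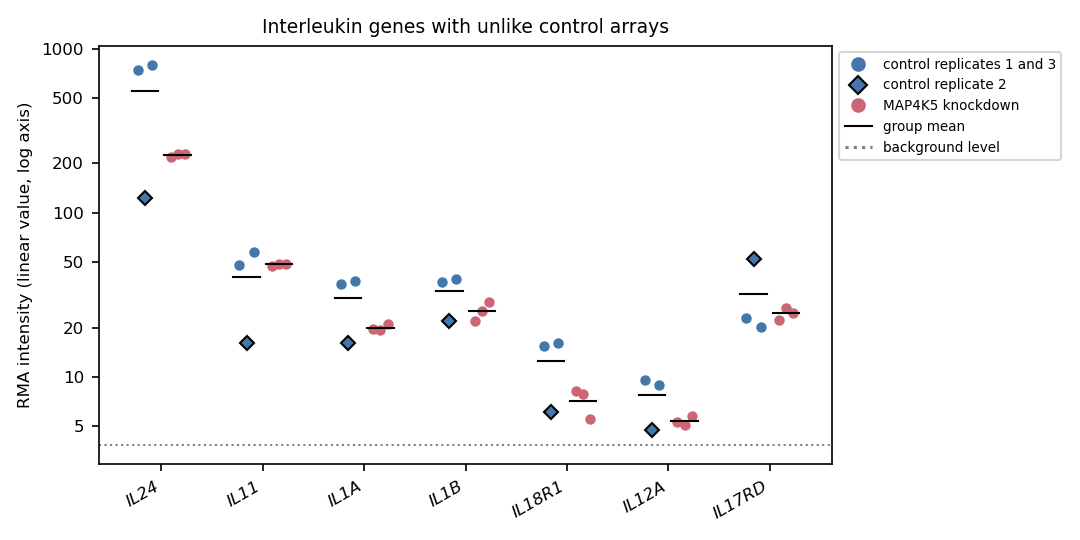
RMA intensity (log axis) of 7 genes in each array, with a black line at each group mean, a diamond for control replicate 2 and a dotted line at the background level. Control replicate 2 is the lowest control for IL24, IL11, IL1A, IL1B, IL18R1 and IL12A and the highest array for IL17RD.

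Control arrays spanned at least 1 on the log2 scale for 6 of the 85 genes, IL1A, IL18R1, IL11, IL12A, IL24 and IL17RD, which is 7.06%, against 1.66% of all genes. In each of the 6, control replicate 2 was the array away from the other 2. For IL1A, IL18R1 and IL12A it lay within 1.23-fold of the knockdown mean, for IL24 it lay 1.84-fold below it, and for IL11 and IL17RD it lay away from all 5 other arrays. Without control replicate 2, 11 of the 85 genes were called, 3 upwards (IL18, IL7R and IL4R) and 8 downwards (IL24, IL18R1, IL1RAP, IL1A, IL12A, IL1B, IL11RA and IL6), beside 20.6% of all genes. Leaving out control replicate 1 gave 2 calls beside 2.88% of all genes, and control replicate 3 gave 1 beside 3.12%. Leaving out knockdown replicates 1, 2 and 3 gave 1, 1 and 2 calls beside 1.79%, 2.05% and 2.16%, so the counts over the 85 genes fell with those over all genes. What set control replicate 2 apart was not tested.

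**Figure D3:**
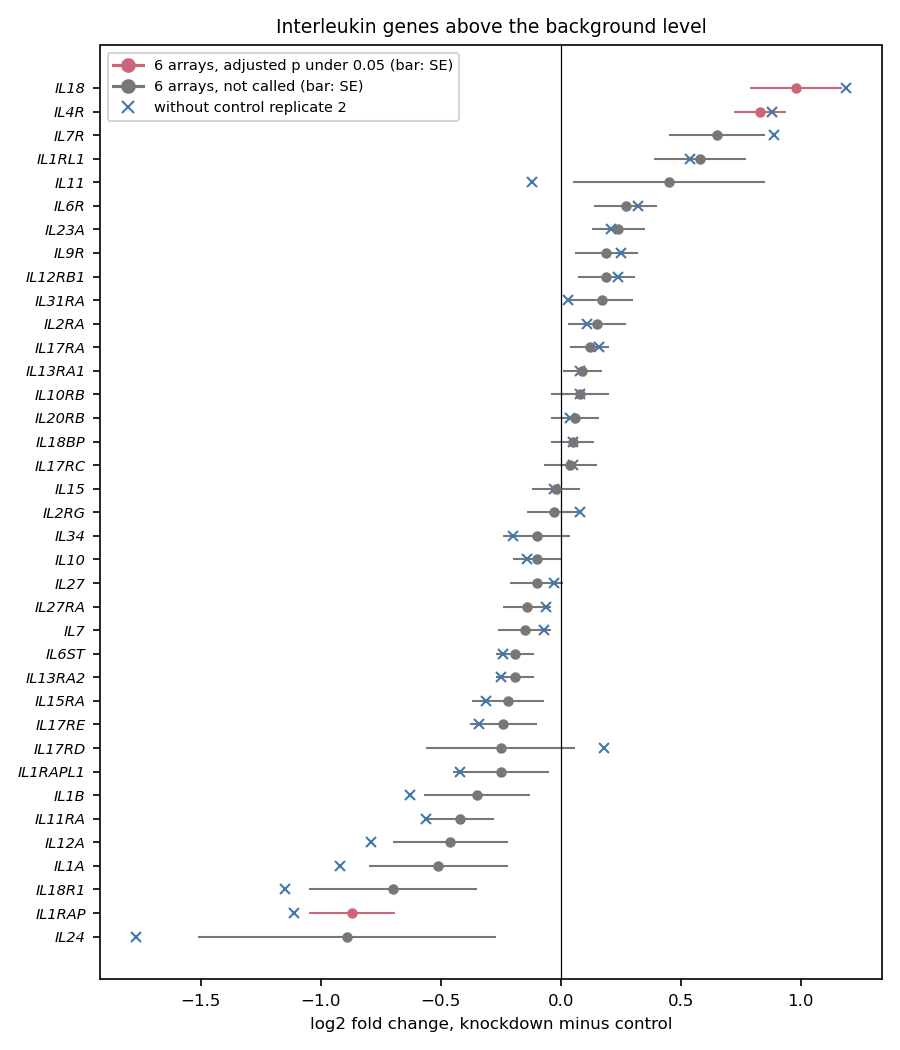
Log2 fold change, knockdown minus control, of the 37 genes above the background level over all 6 arrays (circles with SE, coloured where the adjusted p was under 0.05) and without control replicate 2 (crosses). Without that array IL24 moves from -0.89 to -1.77 and IL11 from 0.45 to -0.12, while IL4R stays near its value, at 0.83 and 0.88.

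Many interleukin genes lie side by side in the genome, and each is described here against the background level and by its own change. In RefSeq gene order on chromosome 1, IL10, IL19, IL20 and IL24 follow each other. IL19 and IL20 were not above background, and of the 4 only IL24 had an absolute log2 change above 0.18. In the receptor cluster on chromosome 2, IL1R2, IL1R1, IL1RL2, IL1RL1, IL18R1 and IL18RAP are consecutive. Only the adjacent pair IL1RL1 (0.58) and IL18R1 (-0.70) was above background, and their changes had opposite signs, with neither called. In the ligand cluster of the same chromosome, IL1A and IL1B were above background and the next 7 genes, IL37 to IL1RN, were not. IL5, IL13 and IL4 on chromosome 5 were not above background.

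**Figure D4:**
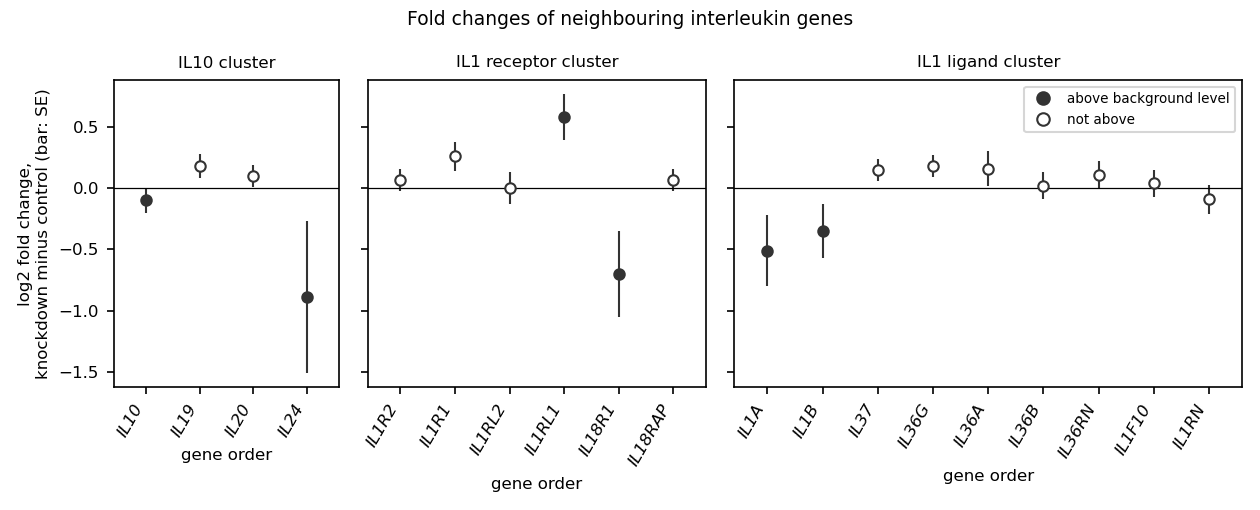
Log2 fold change with SE, knockdown minus control, of genes in RefSeq order in 3 clusters. Filled circles are genes above the background level, which are 2 of 4 in the IL10 cluster, 2 of 6 in the IL1 receptor cluster and 2 of 9 in the IL1 ligand cluster.

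At the level of probe sets, 203 report the 85 genes, and 5 of these were called, 4 upwards and 1 downwards, or 2.46% against 4.48% of all probe sets. The 5 belong to IL4R, IL18, IL1RL1, IL7 and IL1RAP. For 34 of the 85 genes only 1 probe set was available.

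Genes that carry or surround interleukin signals under other names are given from lists written from general knowledge. These lists were chosen with earlier results of these data known. Beside their counts stand the shares over all genes, 7.83% called (3.70% rose and 4.13% fell). Without control replicate 2 the shares were 20.6% called, 10.5% rising and 10.1% falling. Of genes above the background level, 11.8% were called, and 30.4% without that array. Of 9 JAK and STAT genes none was called by limma (0 rose and 0 fell, median log2 -0.05 against 0.01 over all genes; 2 had an unadjusted p under 0.05), while 2 fell without control replicate 2. STAT5B, a main STAT of IL2 and IL7 receptors, came nearest, at 36.1, 26.4 and 34.6 in controls and 18.1, 21.3 and 24.8 in knockdown cells (-0.60 ± 0.15 SE, limma adjusted p = 0.0503). The groups did not overlap, and it fell without control replicate 2 (-0.74, adjusted p = 0.00576). JAK1 (-0.05 ± 0.09) and STAT3 (-0.07 ± 0.08), the shared kinase and STAT of the IL6 family, were not called.

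Of 18 negative regulators, 2 rose and 2 fell, with a median of 0.08, beside 7.83% of all genes called. SOCS2, a feedback inhibitor induced by STAT5, measured 98.1, 63.2 and 90.7 in controls and 37.9, 40.6 and 39.5 in knockdown cells. It was lower in all knockdown arrays (-1.07 ± 0.16 SE, limma adjusted p = 0.00716) and was called in all 6 fits without 1 array. SOCS6 fell (-0.40 ± 0.10), and SOCS5 (0.43 ± 0.10) and the phosphatase PTPN1 (0.38 ± 0.08) rose, but these 3 calls held only without control replicate 2 among those fits. Adjusted over all probe sets, 2 of 2 were called for SOCS2, 1 of 2 for PTPN1, 0 of 2 for SOCS6 and 0 of 4 for SOCS5. Leaving out control replicate 2 gave 6 calls in the list, beside 20.6% of all genes. The list held 2 calls without control 3 and 1 without control 1 or any knockdown array, beside 1.79% to 3.12% of all genes. SOCS3, the main inhibitor of IL6ST signals, lay between 6.55 and 8.99.

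Of 19 genes of the IL1 and Toll adaptor cascade, 2 rose and 3 fell (median -0.08), beside 7.83% of all genes called. The kinase IRAK1 measured 168.4, 192.0 and 179.7 in controls and 234.1, 232.2 and 234.0 in knockdown cells (0.38 ± 0.08 SE, limma adjusted p = 0.0318). Among the Pellino ubiquitin ligases, which modify IRAK proteins, PELI2 (-0.96 ± 0.15) and PELI1 (-0.56 ± 0.11) fell and PELI3 (0.39 ± 0.09) rose. The knockdown values of PELI2, 3.65, 3.80 and 3.52, lay below the background level of 3.83, so the size of its fall is uncertain. TRAF3IP2, the adaptor of IL17 receptors, measured 71.9, 67.5 and 71.5 against 50.4, 55.3 and 55.5 and fell (-0.39 ± 0.08). Among the fits that left out 1 array, the calls of IRAK1, PELI1, PELI3 and TRAF3IP2 held only without control replicate 2. The call of PELI2 was lost without knockdown replicate 1 or 3. Adjusted over all probe sets, 1 of 1 was called for IRAK1, 1 of 2 for PELI2 and TRAF3IP2, 1 of 4 for PELI1 and 0 of 3 for PELI3. Leaving out control replicate 2 gave 6 calls in the list, beside 20.6% of all genes. The list held 1 call without control 1, control 3 or knockdown 2 and 0 without knockdown 1 or 3. Beside these stand 1.79% to 3.12% of all genes.

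The list of 31 ligands and receptor chains under other names also holds genes outside the interleukin families, such as KITLG, KIT and the chemokine CXCL8. Of the 31, 1 rose and 3 fell (median -0.03), beside 7.83% of all genes called. KITLG, the ligand of the receptor KIT, measured 9.62, 11.1 and 6.63 in controls and 23.9, 27.3 and 24.4 in knockdown cells and rose 2.82-fold (1.5 ± 0.18 SE, limma adjusted p = 0.00322). CXCL8, the chemokine formerly named interleukin 8, fell (-0.79 ± 0.11), as did the receptor genes LEPR (-0.64 ± 0.14) and CRLF3 (-0.46 ± 0.08). Of the 6 fits that left out 1 array, KITLG and CXCL8 were called in all 6, CRLF3 in 3 and LEPR in 2. Adjusted over all probe sets, 1 of 4 was called for KITLG, 3 of 3 for CXCL8, 1 of 3 for LEPR and 1 of 2 for CRLF3. LIF, a ligand of the IL6 family, measured 140.4, 67.6 and 139.3 in controls and 67.9, 63.7 and 65.1 in knockdown cells. TSLP, an IL7-like cytokine, measured 8.78, 2.80 and 13.3 against 2.77, 2.82 and 2.42. For both, control replicate 2 lay with the knockdown arrays, and neither was called over all arrays by limma (adjusted p = 0.120 and 0.124). Both fell without control replicate 2, LIF by 1.09 (adjusted p = 0.000104) and TSLP by 2.02 (adjusted p = 0.000206) on the log2 scale. TSLP lay below the background level of 3.83 in all knockdown arrays and in control replicate 2, so the size of its fall is uncertain. Leaving out control replicate 2 gave 10 calls in the list, beside 20.6% of all genes. Without any 1 knockdown array the list held 2, beside 1.79% to 2.16% of all genes.

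Of 20 acute phase and STAT3 target genes, 0 rose and 4 fell (median -0.19), beside 3.70% and 4.13% of all genes. SERPINA3, an acute phase protease inhibitor, measured 348.8, 200.5 and 384.5 in controls and 80.7, 88.8 and 93.3 in knockdown cells, 3.43-fold lower (-1.78 ± 0.22 SE, limma adjusted p = 0.00394). The kinase PIM1 (-1.16 ± 0.16) and the transcription factor CEBPD (-0.74 ± 0.09) also fell, and all 3 were called in each of the 6 fits without 1 array. BCL6 (-0.43 ± 0.10) held its call only without control replicate 2 among those fits. Adjusted over all probe sets, 2 of 2 were called for SERPINA3, 2 of 4 for PIM1, 3 of 5 for CEBPD and 0 of 5 for BCL6. The liver acute phase genes FGA, FGB, FGG, HP, CRP, SAA1 and SAA2 were not above background. Without control replicate 2, 10 of the 20 fell, beside 10.1% of all genes.

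**Figure D5:**
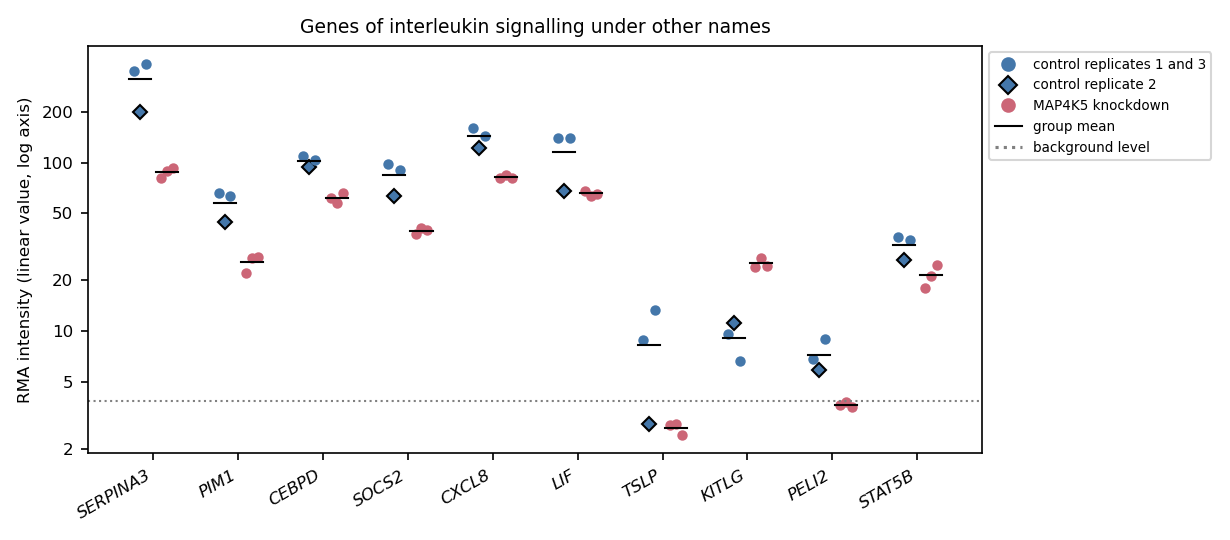
RMA intensity (log axis) of 10 genes of the pathway lists in each array, with a black line at each group mean, a diamond for control replicate 2 and a dotted line at the background level. Control replicate 2 lies with the knockdown arrays for LIF and TSLP and apart from them for SERPINA3, PIM1, CEBPD, SOCS2, CXCL8 and KITLG.

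Among markers of other cell types, 1 of 11 leukocyte genes rose: LYZ, lysozyme, at 4.89, 6.53 and 4.78 in controls and 10.3, 10.1 and 11.1 in knockdown cells (0.97 ± 0.13 SE, limma adjusted p = 0.00491). That LYZ probe set ends in _x_at, a class that can bind other transcripts. The summed level of the 11 was 40.4 to 44.7 in controls and 47.8 to 50.1 in knockdown arrays, and without LYZ that of the other 10 was 35.5 to 39.1 and 37.1 to 39.8, which overlap. Of 6 fibroblast and 5 endothelial markers none was called by limma (0 of 11; 2 had an unadjusted p under 0.05), with sums of 24.9 to 25 and 19.0 to 20.7 in controls and 22.0 to 23.5 and 19.9 to 23.9 in knockdown cells. Of the 13 melanocytic markers, 1 rose and 3 fell (median -0.11). Over all genes 7.83% were called. MITF, the lineage transcription factor, measured 50.6, 79.4 and 52.8 in controls and 121.7, 115.7 and 117.8 in knockdown cells and rose (0.99 ± 0.16 SE, limma adjusted p = 0.0114), a call lost without any 1 knockdown array. The calcium-binding protein gene S100B (-1.31 ± 0.15, adjusted p = 0.00256) and the endothelin receptor gene EDNRB (-0.91 ± 0.10, adjusted p = 0.00234) fell and were called in all 6 fits without 1 array, while SOX10 (-0.54 ± 0.11, adjusted p = 0.0286) held its call only without control replicate 2 among those fits. Adjusted over all probe sets, 2 of 2 were called for MITF, 3 of 3 for S100B, 2 of 4 for EDNRB and 1 of 2 for SOX10 and LYZ. The summed melanocytic level was 370.5 to 411.6 in controls and 352.7 to 375.7 in knockdown arrays. The part of these markers in the results was not tested.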

How the data were processed

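Total RNA of 6 samples, 3 per group, was measured on Affymetrix expression arrays. The deposited intensity values, linear and 1 per probe set, were made by the authors with RMA (background correction, quantile normalization, summary per probe set) per the submitters' processing notes. Neither an RMA version nor a batch is named in the labels. RMA compresses changes of dim probe sets, and the array number limits the precision.

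Of 49293 probe sets, 44988 carry 1 symbol, 1832 several and 2473 none. Symbols were checked through Entrez identifiers against RefSeq GRCh38.p14 (0 changed, 27 not matched). Each of 18132 genes was read by its probe set of highest mean log2 intensity. Groups were compared on log2 intensity, with no pseudocount and no filter, by limma 3.58.1 in R 4.3.3 (lmFit, eBayes), adjusted by Benjamini-Hochberg over the 18132 genes, with calls at an adjusted p under 0.05. Gene means are means of log2 values given as intensity, and group means ± SD are of intensities. The fit was first tested on simulated data with known changes.

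Genes were named where called, where among the 2 highest means of a role group, where groups did not overlap with a log2 change of at least 0.5 above background, where controls spanned at least 1 on the log2 scale, and where partners of these. Of each pathway list up to 2 rises and 2 falls were named, or the smallest p. IL1RAPL1, IL15RA, IL17RA, IL17RC, LIF, TSLP, SOCS3, JAK1, STAT3 and the other genes named outside this rule were chosen after their values were seen. The members and lists were chosen with earlier results of these data known. The alternatives tried were a replicate block, a variance trend with intensity, repeated quantile normalization, a common median, 2 filters on dim genes, a pseudocount, 2 choices of probe set and leaving out each array. Python 3.11.15 served for the other steps.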

Additional observations from a re-analysis of the deposited data

How the results depend on the processing

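The interleukin count of 3 was 4 with the replicate block (IL7R was added at 0.65, limma adjusted p = 0.0462), 1 with probe sets averaged, and 1 to 11 over the fits without 1 array. It was 2 with a pseudocount of 8, where IL1RAP stood at -0.70 (adjusted p = 0.0646), and 2 of 82 once probe sets of the _x_at and _s_at classes were dropped. Deviations of same-numbered arrays from their group means correlated at -0.08, 0.02 and 0.06. With 3 arrays per group and control replicate 2 apart, these values cannot tell whether the cultures were paired, which the labels do not state. The block lowered the count over all genes from 1420 to 1188. MAP4K5 kept its call in every setting run (-2.01 to -1.63). For the lists, the JAK and STAT count was 1 with arrays shifted to a common median, with an intensity trend, with repeated quantile normalization and after dropping genes below the 25% or 50% point of mean intensity, and 0 to 2 without 1 array. The negative regulator count was 1 with probe sets averaged, 2 with the replicate block and 1 to 6 without 1 array. The adaptor count was 3 after dropping the dimmer 50% of genes, 2 with probe sets averaged, 3 with the replicate block and 0 to 6 without 1 array. The count of other-named ligands and chains was 2 to 10 without 1 array, and the acute phase count was 3 to 10, and 2 once those classes were dropped. The background level was 3.39 at the 90th and 7.97 at the 99th percentile of olfactory receptor genes, with 48 and 25 of the 85 genes above it. For genes not above it, a level could not be told from background.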
